A study of Mus musculus with 12 samples.

Results

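Gene expression was compared between quadriceps muscle of mice carrying a mutation in PGC1beta and quadriceps of control mice. The comparison used 6 of the 12 arrays of the series, 3 of mutant muscle and 3 of control muscle, chosen by their titles. The other 6 arrays were of liver from mice of the same 2 kinds. All groups were on the C57BL/6 strain. The control group is labelled as wild type or control with no further allele, and the series title calls the mutation hypomorphic, that is, one that lowers the gene's function without removing it. The labels give neither age, sex nor treatment, and do not say whether the 3 samples of a group came from separate mice, so the p-values here reflect only how far these arrays differ from each other, which may be technical variation. Each array was an Affymetrix Murine 430 2.0 chip, on which a transcript is read by a probe set, a group of short probes. Values are normalised intensities, and 13131 genes with a single symbol were tested.

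PGC-1beta, the product of Ppargc1b, is a transcriptional coactivator. It does not bind DNA itself but docks on transcription factors such as the oestrogen-related receptors, nuclear respiratory factor 1 and the PPARs. The genes reached in this way include many nuclear genes for the respiratory chain, the tricarboxylic acid (TCA) cycle and fatty acid oxidation, the pathways by which muscle turns fuel into ATP. The respiratory chain passes electrons from complexes I and II through complex III and cytochrome c to complex IV, and ATP synthase uses the proton gradient that results.

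Motifs of 3 factors that are known to act on such genes were searched on both strands in the 250 bases before each start site, in promoters from RefSeq (build GRCm38.p6). Of all 27025 genes with a promoter, 1.3% held the oestrogen-related receptor motif TNAAGGTCA in any of their promoters. The palindromic nuclear respiratory factor 1 motif was held by 0.877% and the GABP motif CCGGAAGT by 3.23%. Among the 10566 tested genes with a promoter the shares were 0.928%, 1.72% and 5.92%. One promoter is shown for each motif, from a respiratory or fatty acid oxidation gene whose values follow. Each is written 5′ to 3′ on the gene's own strand, and capitals mark the motif, which in Atp5g3 lies on the opposite strand.

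Uqcr11, complex III, GABP motif, chr10:80406822-80406947, minus strand: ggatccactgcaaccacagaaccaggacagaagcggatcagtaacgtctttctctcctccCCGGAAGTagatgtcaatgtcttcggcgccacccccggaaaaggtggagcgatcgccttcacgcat
Atp5g3, ATP synthase, oestrogen-related receptor motif, chr2:73911327-73911438, minus strand: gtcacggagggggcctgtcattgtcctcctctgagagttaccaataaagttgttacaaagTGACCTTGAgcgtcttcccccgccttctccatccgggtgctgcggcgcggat
Etfdh, electron transfer from fatty acid oxidation, nuclear respiratory factor 1 motif, chr3:79628826-79628955, minus strand: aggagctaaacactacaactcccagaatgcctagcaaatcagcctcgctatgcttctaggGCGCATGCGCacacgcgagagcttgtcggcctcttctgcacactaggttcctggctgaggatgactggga

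The motif began 66 bases before the start in Uqcr11, 52 in Atp5g3 and 128 in Etfdh. Such matches were few. Of the members with a promoter, none of 30 complex I genes and none of 22 TCA cycle genes held any of the 3 motifs in this window. Among 8 genes of complexes II and III, 2 held the GABP motif. Among 16 ATP synthase genes, 1 held the oestrogen-related receptor motif, 2 the nuclear respiratory factor 1 motif and 1 the GABP motif. Of 66 mitochondrial ribosomal protein genes, 10 (15.2%) held the GABP motif.

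The muscle arrays had median deposited intensities of 20.1 to 22.3 and correlated with each other at r = 0.964 or more across tested genes. Skeletal muscle genes marked them clearly. Acta1, Ckm, Myh4 and Mylpf, which encode skeletal actin, creatine kinase and fast myosin chains, read 10650 or more in each muscle array and 48.5 or less in each liver array. Albumin, a liver product, read 12.2 to 61.1 in muscle. The mean log2 ratio of 3′ to 5′ signal over 3 control transcripts, a sign of RNA quality, was 0.400 to 0.520 in control and 0.325 to 0.556 in mutant muscle, so the groups overlapped. Quantile normalisation gives each array the same set of values by rank, so the brightest genes have little room to differ. Mylpf, for instance, read 12840 in each of the 6 muscle arrays.

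The mutated gene was examined first. Ppargc1b, read by a single probe set, was at 302, 285 and 332 in controls 1 to 3 and at 423, 280 and 271 in mutants 1 to 3. Mutant 1 lay above the 3 controls and the other mutants lay just below them. The log2 difference (mutant minus control, as throughout) was 0.06 ± 0.17 (SE), with a 95% interval of -0.32 to 0.43 and an adjusted p of 0.997 in limma. Without mutant 1 it was -0.14. That interval allows a difference in either direction. Which part of the transcript the probe set reads, relative to the mutation, is not stated in the sources used here.

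At an adjusted p under 0.05 in limma, 2 of the 13131 genes (0.0152%) changed, BC023105 and Iigp1, and both rose in mutant muscle. No gene fell at that threshold. At an unadjusted p under 0.05, 229 genes (1.74%) were higher and 331 (2.52%) lower in mutant muscle. In 568 genes (4.33%) each mutant array lay above each control array, and in 685 (5.22%) each lay below. Over all tested genes the median log2 difference was -0.0002, the central 90 percent of genes lay between -0.37 and 0.35, and 50.1% were lower in the mutant mean.

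**Figure D1:**
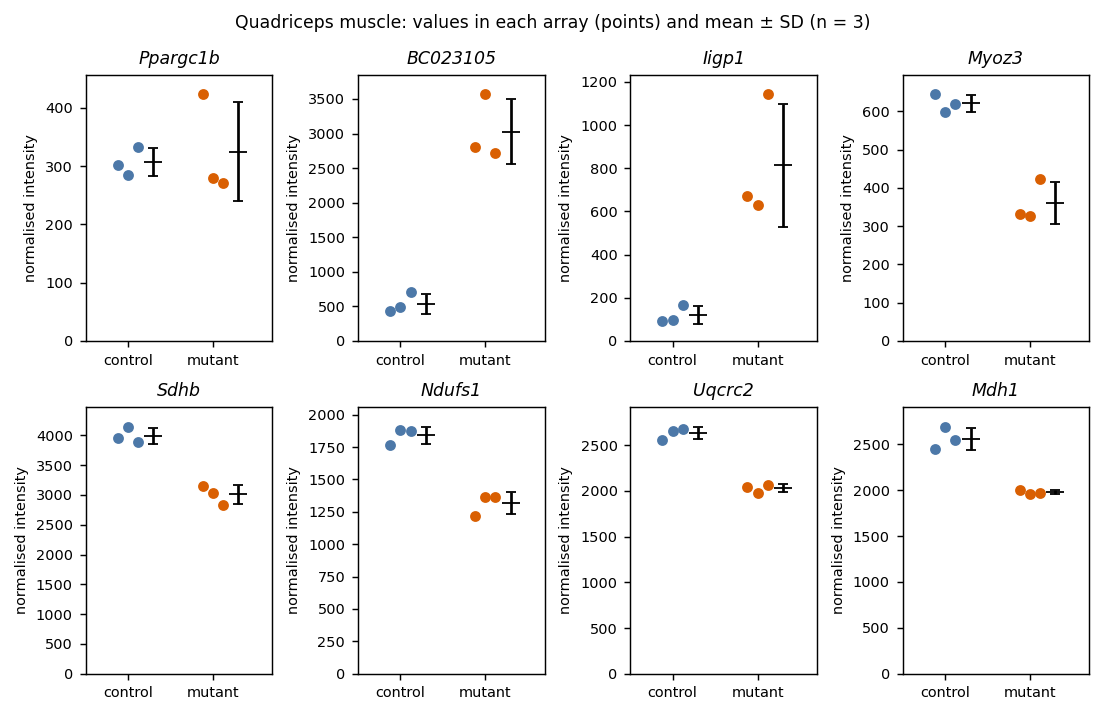
Normalised intensity (vertical axis, from 0) of 8 genes in each control (blue) and mutant (orange) quadriceps array, with the mean ± SD (n = 3) beside the points. BC023105 and Iigp1 are higher in each mutant array, Myoz3, Sdhb, Ndufs1, Uqcrc2 and Mdh1 are lower in each, and Ppargc1b overlaps.

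BC023105 is annotated as a pseudogene. It read 429, 487 and 703 in the controls and 2805, 3568 and 2714 in the mutants, or 540 ± 144 against 3029 ± 469 (SD, n = 3 each). The lowest mutant value was well above the highest control value. The log2 difference was 2.47 ± 0.17 (SE), a 5.55-fold rise, with an adjusted p of 0.00065. In liver it read 105 ± 79.4 in controls and 223 ± 122 in mutants (SD, n = 3 each), and its log2 difference of 1.01 ± 0.51 (SE) did not pass (adjusted p 0.314).

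Iigp1 encodes an interferon-inducible GTPase of the immunity-related family, known for defence against intracellular parasites. It read 92.8, 99.3 and 168 in controls and 670, 629 and 1142 in mutants, with no overlap. The log2 difference was 2.60 ± 0.25 (SE), a 6.06-fold rise, and the adjusted p was 0.00704. Its second probe set gave 2.22 with an adjusted p of 0.113 over all probe sets. In liver Iigp1 read 3824 ± 860 in controls and 3546 ± 200 in mutants (SD, n = 3 each).

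No other tested interferon gene passed the threshold. Of the 33 others, 20 were lower and 13 higher in mutant muscle, with a median of -0.05 and a range from -0.47 to 0.41. Irf8, an interferon-regulatory transcription factor, was at 56.8, 44.7 and 58.2 in controls and 29.9, 44.8 and 34.3 in mutants, and its second probe set, dimmer still, was higher in mutants. Gbp2, a guanylate-binding protein, was at 39.5, 40.8 and 34.6 against 26.6, 19.8 and 28.6. Bst2, the antiviral protein tetherin, was at 42.9, 29.8 and 55.2 against 32.3, 21.9 and 23.9. All of these were dim, and the differences ran the other way from that of Iigp1.

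The call on BC023105 was lost without the variance trend (adjusted p = 0.0512) and when the spread was estimated from all 12 arrays (adjusted p = 0.297). The call on Iigp1 was lost without the variance trend (adjusted p = 0.162), with its probe sets averaged (0.131), without control 1 (0.0663) and without control 2 (0.0819).

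The third smallest p belonged to Myoz3, which encodes calsarcin-3, a Z-disc protein of fast fibres. Its brighter probe set read 644, 598 and 619 in controls and 331, 326 and 423 in mutants, a difference of -0.77 ± 0.12 (SE) with an adjusted p of 0.41. Its other probe set went the opposite way, with 82.6, 63.0 and 65.4 in controls and 284, 169 and 253 in mutants (1.52, adjusted p 0.0958 over all probe sets). Both were free of overlap, so the probe sets of this gene disagreed, and their average gave 0.37.

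BC023105, Iigp1 and Myoz3 all lie on the chromosome of Ppargc1b, which holds 338 (2.58%) of the tested genes. In RefSeq's gene order (GRCm38.p6) no protein-coding gene separates BC023105 from Iigp1, and 20 lie between this pair and Ppargc1b. Myoz3 lies on the same side, 16 protein-coding genes away. With up to 25 protein-coding genes between it and Ppargc1b on either side, a gene belonged to a neighbourhood of 35 tested genes, of which 2 were called, 2 were higher without overlap and 5 lower without overlap, against 0.0152%, 4.33% and 5.22% of all genes. The others lower without overlap were 1500015A07Rik (-0.54), Nars (-0.36), Fech (-0.12) and Tcof1 (-0.15), named here after their values were seen. The part of chromosomal position in these values was not tested.

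Of the 24 genes with the smallest p, 18 were lower and 6 higher in mutant muscle, all without overlap, and 10 belonged to the lists of respiratory chain, ATP synthase and TCA cycle genes. Besides those, and BC023105, Iigp1 and Myoz3, the bright ones were Micos13 and Ppif. Micos13, a subunit of the complex that shapes mitochondrial cristae, read 728, 824 and 758 in controls and 495, 500 and 619 in mutants (-0.51 ± 0.12 SE). Ppif, the cyclophilin of the mitochondrial permeability transition pore, read 205, 230 and 208 against 93.0, 95.8 and 168 (-0.82 ± 0.20 SE). Mutant 3 lay nearest the controls for both. Tmem41a (-0.59) and Nrip2 (-0.78) were lower at intermediate or low intensity, Nrip2 in 1 of its 2 tested probe sets, and the clock gene Per2 was higher.

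The remaining ones were close to the floor of the measurement. Zglp1 (0.98), Acsf2 (1.01) and Bace2 (0.86) were higher and 1700012I11Rik (-0.97), Trp53i13 (-0.74) and Lst1 (-0.90) lower. The highest muscle value among these 6 was 51.9, in Trp53i13, and 3 of the 4 tested probe sets of Bace2 shared its direction. Adjusted p-values of the genes after BC023105, Iigp1 and Myoz3 in this order were 0.583 or more.

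Nuclear genes of the respiratory chain and ATP synthase were lower together in mutant muscle, each by a small amount. Of 77 tested genes, 75 were lower, against 50.1% of all genes. In 42 (54.5%) each mutant array lay below each control array, against 5.22% of all genes, and none had the reverse. The median log2 difference was -0.19, or 0.879 of the control level. None of the 77 passed an adjusted p of 0.05, and 35 had an unadjusted p under 0.05, all lower, so these are descriptions of a list and not calls on its members. In bulk muscle, fewer cells of a type and less RNA per cell cannot be told apart.

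**Figure D2:**
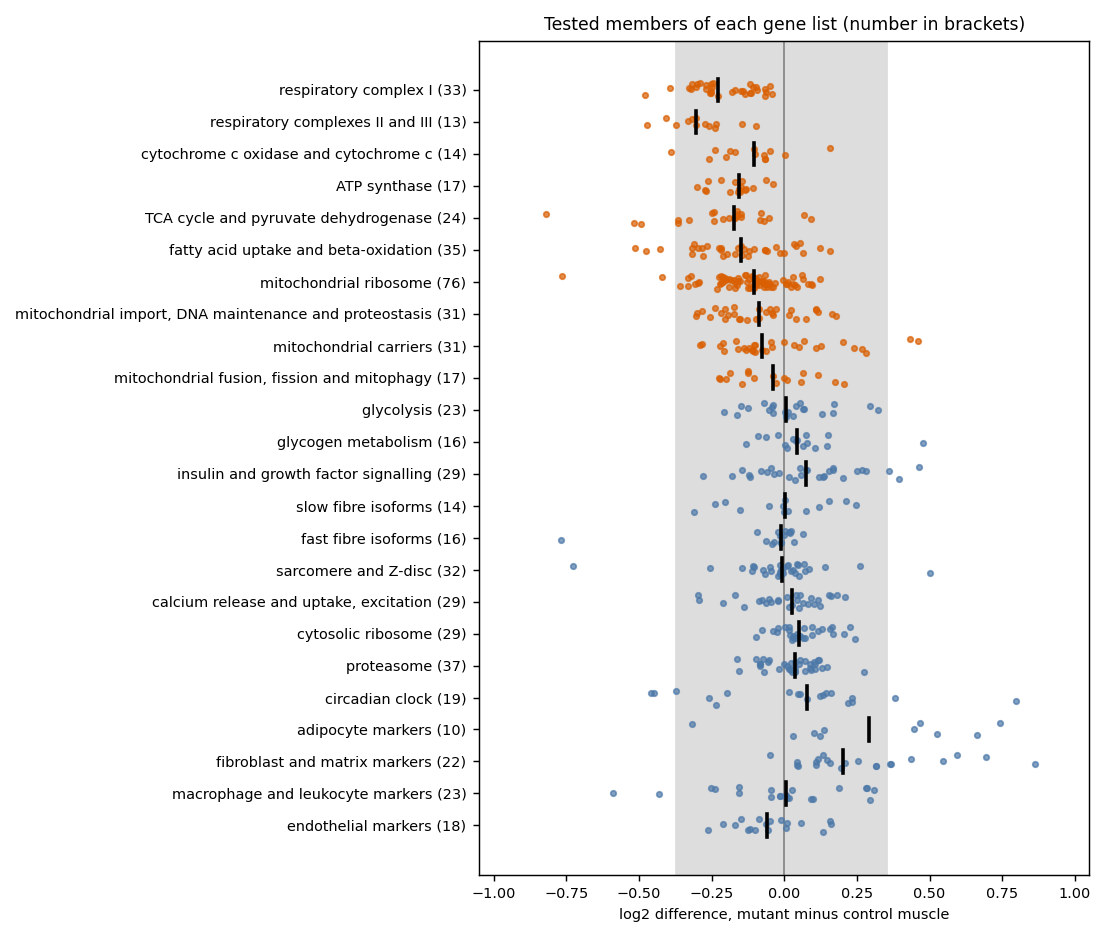
Log2 difference between mutant and control muscle (horizontal axis) of each tested gene (points) in 24 lists, with the list median as a black bar. The grey band holds the central 90 percent of all tested genes. Mitochondrial lists are orange and other lists blue. The medians of the respiratory lists lie left of 0, from -0.30 for complexes II and III to -0.10 for cytochrome c oxidase, and those of the contractile lists lie near 0.

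Complex I, which oxidises NADH, had 37 genes on its list, 34 measured and 33 tested. All 33 were lower in mutant muscle, 16 of them (48.5%) without overlap and 14 with an unadjusted p under 0.05. Their median was -0.23 and they ranged from -0.48 (Ndufs1) to -0.04 (Ndufa3). In each array the list's median deviation from the genes' means was 0.08 to 0.12 in controls and -0.12 to -0.08 in mutants, so the groups were apart.

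Ndufs1, the largest iron-sulphur subunit of complex I, read 1767, 1881 and 1873 in controls and 1219, 1368 and 1363 in mutants. The difference was -0.48 ± 0.09 (SE) with an adjusted p of 0.583. Ndufb9, an accessory subunit, read 4857, 5180 and 5166 against 4098, 4072 and 4128 (-0.30). Ndufv1, which carries the NADH site, read 2390, 2550 and 2250 against 1963, 1986 and 1769 (-0.33), and its 3 probe sets shared a direction. Ndufab1, the mitochondrial acyl carrier protein, read 2167, 2107 and 2459 against 1746, 1789 and 1828 (-0.32). For all 4 genes the mutant arrays lay below the control arrays.

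Complexes II and III had the lowest median of the mitochondrial lists, -0.30. All 13 members were measured and tested, 13 were lower, 11 (84.6%) without overlap and 10 with an unadjusted p under 0.05. Members ranged from -0.47 (Cyc1) to -0.10 (Uqcrb). Array medians were 0.09 to 0.20 in controls and -0.16 to -0.09 in mutants.

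Sdhb, the iron-sulphur subunit of succinate dehydrogenase, had the fourth smallest p of all genes. It read 3951, 4140 and 3886 in controls and 3153, 3034 and 2838 in mutants, a difference of -0.41 ± 0.07 (SE) with an adjusted p of 0.583. Uqcrc2 and Uqcrc1 encode the core proteins of complex III. Uqcrc2 read 2555, 2657 and 2680 against 2043, 1981 and 2065 (-0.37 ± 0.07 SE, adjusted p 0.97), and Uqcrc1 read 5134, 4801 and 4857 against 3951, 4251 and 3770 (-0.31).

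Uqcr11, a small complex III subunit with the GABP motif shown above, read 2719, 2965 and 2749 in controls and 2168, 2226 and 2298 in mutants (-0.33). Cyc1, cytochrome c1, read 2467, 3426 and 2802 against 2199, 1999 and 2001 (-0.47). The controls of Cyc1 varied widely, yet the lowest still exceeded the highest mutant.

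Cytochrome c oxidase, complex IV, hands the electrons to oxygen, and its list also held cytochrome c. Of 17 genes 16 were measured and 14 tested, of which 12 were lower, 5 without overlap and 5 with an unadjusted p under 0.05, and the median was -0.10. Cox4i1 read 4317, 4494 and 4330 in controls and 3529, 3606 and 3835 in mutants (-0.26). Cycs, cytochrome c itself, read 5691, 5546 and 5430 against 5069, 4573 and 4494 (-0.24), and its 3 tested probe sets were all lower.

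Cox6b1 read 6204, 6204 and 6143 in controls and 5231, 5245 and 5657 in mutants (-0.20), and Cox7a2 read 5939, 6048 and 6077 against 5475, 5093 and 5318 (-0.19). Both are structural subunits of complex IV, and neither overlapped between the groups. The lowest member was Cox8a, at -0.39 and between -0.63 and -0.16 with 1 array left out. The highest was Cox4i2, at 0.16 and between 0.03 and 0.31.

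All 17 ATP synthase genes were tested and all were lower, 10 (58.8%) without overlap and 6 with an unadjusted p under 0.05, with a median of -0.16. Atp5d, the delta subunit of the catalytic head, read 3232, 3606 and 3464 in controls and 2888, 2569 and 2895 in mutants (-0.30). Atp5g1, one of the genes for the membrane ring, read 3974, 4266 and 3824 against 3046, 3347 and 3628 (-0.27). Its second probe set was near the floor and gave 0.04.

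Atp5g3, another ring gene and the one with the oestrogen-related receptor motif shown above, read 5858, 7048 and 6227 in controls and 5564, 5430 and 5748 in mutants (-0.19). Atp5o, which joins the head to the stalk, read 3292, 3683 and 3347 against 2854, 3123 and 2888 (-0.22), and Atp5pb, a stalk subunit, read 3511, 3538 and 3735 against 3232, 3148 and 3209 (-0.17). The mutant values of each lay below the control values.

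**Figure D3:**
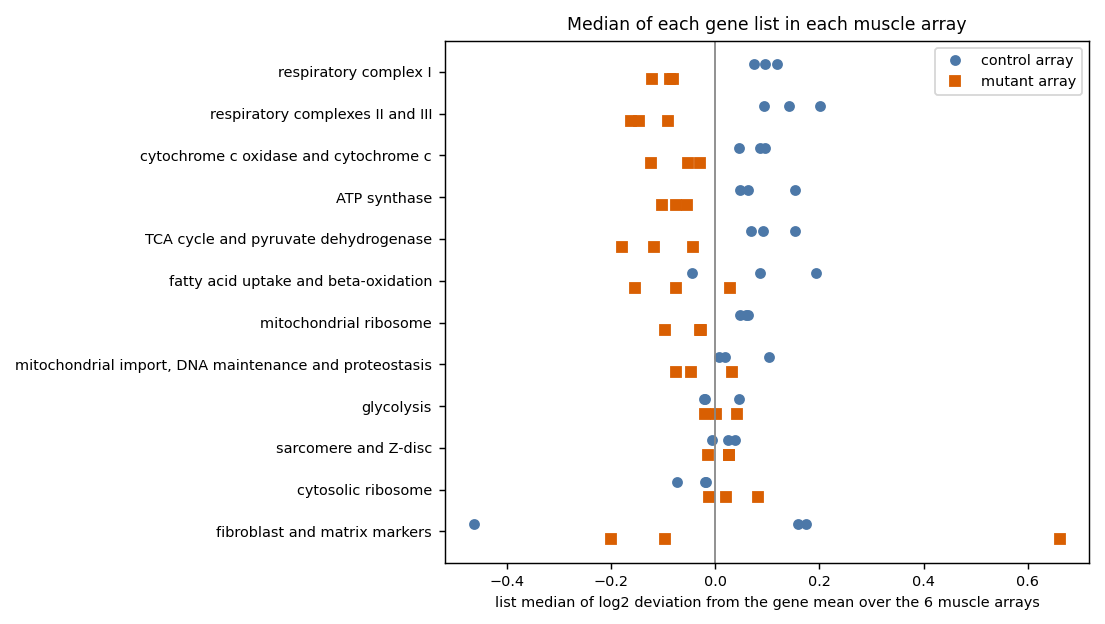
Median over each list's tested genes of the log2 deviation from the gene's mean over the 6 muscle arrays (horizontal axis), for each control array (blue circles) and mutant array (orange squares). Mutant arrays lie below control arrays for the respiratory complexes, ATP synthase, the TCA cycle and the mitochondrial ribosome, and above them for the cytosolic ribosome. The groups overlap for fatty acid oxidation, mitochondrial import, glycolysis, the sarcomere, and fibroblast and matrix markers.

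The TCA cycle and pyruvate dehydrogenase list showed the same direction. Of 24 tested genes (25 measured of 26), 22 were lower, 13 (54.2%) without overlap and 9 with an unadjusted p under 0.05, and the median was -0.17. Mdh1, the cytosolic malate dehydrogenase of the malate-aspartate shuttle, read 2449, 2687 and 2544 in controls and 2006, 1959 and 1974 in mutants (-0.37 ± 0.08 SE). Its 4 tested probe sets were all lower.

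Idh3b, a subunit of NAD-dependent isocitrate dehydrogenase, read 819, 938 and 1047 in controls and 646, 630 and 658 in mutants (-0.52). Of its 3 tested probe sets 2 were lower, and both probe sets not used here were dim. Dld, the dihydrolipoamide dehydrogenase shared by the 2-oxoacid dehydrogenase complexes, read 511, 559 and 525 against 359, 398 and 362 (-0.49), and Dlst, of the 2-oxoglutarate dehydrogenase complex, read 903, 941 and 1005 against 690, 655 and 871 (-0.37). None of these overlapped.

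The member with the lowest value, Pdk4, is a kinase that inhibits pyruvate dehydrogenase and is induced by fasting. It varied most among mutants, with 1092, 1425 and 1202 in controls and 592, 1230 and 450 in mutants (-0.82 ± 0.29 SE). Mutant 2 lay within the control range, so the groups overlapped.

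Fatty acid uptake and beta-oxidation genes were displaced less evenly. All 35 measured genes of 38 were tested, 28 were lower, 8 (22.9%) without overlap and 6 with an unadjusted p under 0.05, with a median of -0.15. The array medians overlapped, at -0.04 to 0.19 in controls and -0.15 to 0.03 in mutants. Control 1 and mutant 2 were the arrays that crossed.

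Acadvl, the very-long-chain acyl-CoA dehydrogenase that begins the spiral, read 1238, 1359 and 1326 in controls and 1035, 1084 and 1021 in mutants (-0.32). Acadl, the long-chain enzyme, read 1262, 1269 and 1301 against 939, 1179 and 1036 (-0.28). Etfdh, which passes electrons from these enzymes to ubiquinone and holds the nuclear respiratory factor 1 motif shown above, read 405, 416 and 370 against 317, 296 and 261 (-0.43). Cpt2, the inner-membrane carnitine palmitoyltransferase, read 470, 462 and 465 against 355, 344 and 435 (-0.30). The groups were apart for all 4, and adjusted p was 0.995 for each.

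Mitochondrial ribosomal proteins, which serve translation inside the organelle, were lower in 62 of 76 tested genes, 14 (18.4%) without overlap, with 9 at an unadjusted p under 0.05 and a median of -0.10. Array medians were 0.05 to 0.06 in controls and -0.10 to -0.03 in mutants. Mrps36, on this list by its symbol only, read 773, 562 and 712 against 423, 283 and 501 (-0.76). Mrpl12 read 483, 530 and 484 against 378, 346 and 382 (-0.42). Mrpl54 (-0.36) and Mrpl41 (-0.32) were also lower without overlap.

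Of 31 genes of mitochondrial import, DNA maintenance and proteostasis, 22 were lower and 7 (22.6%) did not overlap, with 2 at an unadjusted p under 0.05 and a median of -0.09. The array medians overlapped, at 0.01 to 0.10 in controls and -0.07 to 0.03 in mutants. Hspa9, the mitochondrial Hsp70 that pulls proteins in, read 1074, 998 and 1026 in controls and 871, 793 and 840 in mutants (-0.30). Hspe1, the Hsp10 co-chaperonin of mitochondrial Hsp60, differed by -0.28, and the translocase subunits Timm23 and Timm10 by -0.17 and -0.30.

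The mitochondrial carrier list, which also held the Vdac channels of the outer membrane, was lower in 19 of 31 genes, with a median of -0.08. In 5 (16.1%) the mutants were lower without overlap, against 5.22% of all genes, and 2 had an unadjusted p under 0.05. Slc25a11, the oxoglutarate carrier of the malate-aspartate shuttle, read 1248, 1343 and 1284 against 1063, 1038 and 1074 (-0.28), and the phosphate carrier Slc25a3 read 6010, 5921 and 5939 against 5282, 5504 and 5231 (-0.16). The adenine nucleotide translocator Slc25a4 differed by -0.10 and the uncoupling-protein relative Slc25a27, which is dim, by 0.43.

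Genes of mitochondrial fusion, fission and mitophagy were near the background, with 11 of 17 lower, 1 lower and 1 higher without overlap, none at an unadjusted p under 0.05 and a median of -0.04. Mfn2 (-0.20) and Opa1 (-0.19), which fuse the outer and inner membranes, were the fusion genes with the smallest p. Antioxidant enzymes were split evenly, 11 lower and 11 higher, with 2 lower at an unadjusted p under 0.05, and the 2 that were lower without overlap were both mitochondrial. Txn2, the mitochondrial thioredoxin, read 601, 588 and 578 in controls and 438, 460 and 460 in mutants (-0.37), and Prdx3, its peroxiredoxin, differed by -0.21.

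The transcription factors and coactivators that act with PGC-1beta were not displaced as a list. Of 36 tested, 18 were lower and 18 higher, with a median of -0.01, and 3 were lower and none higher at an unadjusted p under 0.05. Ppara, the fatty acid-sensing nuclear receptor, read 83.6, 50.3 and 77.0 in controls and 45.7, 39.4 and 9.93 in mutants (-0.93 ± 0.31 SE). With 1 array left out the difference lay between -1.16 and -0.53, and its other probe sets gave -0.24 and -0.05, both with overlap. Esrra, the oestrogen-related receptor alpha, read 341, 333 and 272 against 261, 240 and 236 (-0.34 ± 0.13 SE). On the probe sets used, neither gene overlapped, and both had an adjusted p of 0.995.

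Rxrg, the retinoid X receptor gamma, read 475, 296 and 346 in controls and 310, 228 and 249 in mutants (-0.46), with overlap. Nrip1, a corepressor of oxidative genes in muscle, was the highest of the list and read 219, 363 and 287 against 296, 379 and 422 (0.33), also with overlap.

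Contractile genes had a median near 0. Over 91 tested genes of fibre isoforms, sarcomere, Z-disc and calcium handling, 47 were lower, 5 lower and 2 higher without overlap (5.5% lower), and the median was -0.002. At an unadjusted p under 0.05, 2 were lower and 1, Pdlim3, higher. The median was 0.001 for 14 slow fibre genes and -0.01 for 16 fast ones, and it was -0.01 for 32 sarcomere and 0.03 for 29 calcium genes.

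Among fast fibre genes, Myh4, the IIb myosin, read 11870, 10650 and 10850 in controls and 10650 in each mutant, and Atp2a1, the fast calcium pump, read 12140 in each control and 11620, 11620 and 12140 in mutants. These lie at the top of the range, where ranks leave little room. Myh1, the IIx myosin, read 6077, 6304 and 6494 against 6010, 6304 and 5399 (-0.09), and only 1 of its 3 probe sets was lower. Myh2, the IIa myosin, had the widest spread, with 1964, 2004 and 1247 in controls and 3413, 5180 and 308 in mutants, so that the arrays differed more within the mutant group than between groups. It is named after its values were seen.

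Slow fibre genes had no common direction. Myl3, the slow essential light chain, read 48.7, 41.4 and 36.3 in controls and 25.1, 35 and 32.5 in mutants (-0.31), and Tnnt1, the slow troponin T, differed by 0.25 with overlap. Capn3, a muscle calpain bound to titin, read 840, 1253 and 729 against 330, 727 and 680 (-0.73). Its other probe set, of similar brightness, gave -0.11 with overlap. Pdlim3, a Z-disc adaptor, read 2794, 2491 and 2714 against 3306, 3394 and 2909 (0.26). Jsrp1, a partner of the calcium release machinery, differed by 0.21 with overlap, and Pln, the inhibitor of the slow calcium pump, by -0.29. One of the 3 probe sets of Pln went the other way, at 0.51 without overlap.

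Genes of growth, atrophy and myogenic regulation were mostly higher, 24 of 35, with a median of 0.12 and 3 (8.57%) higher without overlap, against 4.33% of all genes. At an unadjusted p under 0.05, 2 were higher. Myh8, the perinatal myosin, read 32.7, 27.6 and 23.9 in controls and 44.1, 44.6 and 44.8 in mutants (0.46), near the floor. Myf6, the myogenic factor of mature fibres, read 707, 688 and 687 against 815, 833 and 759 (0.20), and the lysosomal protease Ctsl differed by 0.30 with overlap. Runx1 was the lowest of the list, at -0.71 with overlap. Its other tested probe sets, both dim, went the opposite way, at 0.90 without overlap and 0.17 with overlap.

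Genes of glucose handling lay near the background. Glycolysis genes were lower in 9 of 23 with a median of 0.01, and none had an unadjusted p under 0.05. Hk2, the muscle hexokinase, read 1540, 1696 and 1752 in controls and 1814, 1870 and 1937 in mutants (0.17), and Slc2a1, a glucose transporter, differed by 0.29 with overlap. Glycogen genes were higher in 12 of 16 (median 0.04), and Ppp1r3d, a glycogen-targeting phosphatase subunit, read 26.2, 20.9 and 27.2 against 37.9, 46.0 and 38.5 (0.48).

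Insulin and growth factor signalling genes were higher in 19 of 29, with a median of 0.08, 2 (6.90%) higher without overlap, against 4.33% of all genes, and 3 higher at an unadjusted p under 0.05. Pik3r1, the regulatory subunit of the kinase that relays the insulin signal, read 254, 266 and 283 in controls and 406, 349 and 372 in mutants. Its difference was 0.46 ± 0.11 (SE), its adjusted p 0.995, and its 4 tested probe sets were all higher. Igfbp5, which binds insulin-like growth factors, differed by 0.25 and Grb10, an adaptor that restrains the insulin receptor, by 0.36, both with overlap on the probe set used. Another probe set of Igfbp5 gave 0.70 without overlap. The others of Grb10, both dim, gave 0.54 without overlap and 0.05 with overlap. Eif4ebp1, the translation repressor, was 0.17 higher without overlap on the probe set used. Its other tested probe sets gave 0.03 and -0.15, both with overlap.

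Cytosolic ribosomal proteins lay on the opposite side from those of mitochondria. Of 29 tested (32 measured of 52), 24 were higher, 8 (27.6%) without overlap, against 4.33% of all genes, and 5 had an unadjusted p under 0.05. The median was small, 0.05. Rplp0, of the ribosomal stalk, read 3156, 2708 and 2666 in controls and 3274, 3278 and 3522 in mutants (0.24), and Rps4x read 2487, 2508 and 2794 against 2987, 2973 and 3018 (0.21). Rps10 (0.23) and Rps29 (0.17) were also higher without overlap.

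Proteasome genes were higher in 25 of 37, with a median of 0.04. Psmd13 read 327, 356 and 336 in controls and 424, 385 and 436 in mutants (0.28). The median was 0.01 for 25 genes of the integrated stress and unfolded protein response, none of them free of overlap, and -0.04 for 17 heat shock genes, with 1 lower and 1 higher without overlap. Hsph1 (-0.51) and Hspa1b (0.51) bounded the latter.

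Clock genes were higher in 13 of 19, 3 (15.8%) without overlap, against 4.33% of all genes, with a median of 0.08. The array medians overlapped, at -0.041 to -0.036 in controls and 0.181, 0.057 and -0.072 in mutants 1 to 3. Per2, a repressor of the clock, read 34.1, 43.3 and 56.5 in controls and 81.4, 112 and 74.8 in mutants (0.80 ± 0.20 SE). Its other tested probe sets gave 0.31 without overlap and 0.02 with overlap. Cry2, another repressor, read 164, 126 and 154 against 209, 194 and 188 (0.38), and Rora, an activating receptor, differed by 0.23 without overlap. Bhlhe41, a repressor, went the other way at -0.37 with overlap.

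Lipid and cholesterol synthesis genes had a median of 0.04 over 29 genes, with 2 lower and 2 higher at an unadjusted p under 0.05. Fasn, the fatty acid synthase, read 79.0, 176 and 71.7 in controls and 156, 286 and 188 in mutants (0.91), with control 2 above mutant 1. Lss, lanosterol synthase, read 44.8, 44.0 and 35.5 against 18, 4.95 and 26 (-0.88), with a second probe set in the opposite direction, and Pnpla2, the adipose triglyceride lipase, read 591, 958 and 658 against 581, 524 and 503 (-0.42). Immediate early genes had a median of 0.02 over 24 genes, with none free of overlap. Myc differed by 0.63 near the floor and Vegfb by -0.38.

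Markers of other cell types were examined because a muscle sample also holds fat, connective tissue, vessels and blood. Adipocyte markers were higher in 9 of 10 tested genes, with a median of 0.29, 2 higher without overlap and the same 2 at an unadjusted p under 0.05. Summed over the list, they read 4651, 9476 and 7458 in controls and 9802, 11250 and 9632 in mutants. Most of that sum was Car3, a carbonic anhydrase that muscle fibres also make, at 2692, 6143 and 4738 against 7560, 7730 and 6304. Without Car3 the sums were 1959, 3333 and 2721 in controls and 2242, 3523 and 3328 in mutants, and overlapped.

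Adipoq, the defining adipocyte hormone, read 218, 499 and 262 in controls and 298, 509 and 499 in mutants, also with overlap. Retn, the adipokine resistin, differed by 0.47 with overlap and Slc36a2, an amino acid transporter, by 0.66 near the floor. The part of adipocyte RNA in the list medians was not tested.

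Fibroblast and matrix markers were higher in 21 of 22 genes, with a median of 0.20, but only Pdgfra (0.32) did not overlap. Their sums were 35250, 18630 and 34470 in controls and 28230, 27270 and 49900 in mutants. Control 2 was the lowest array and mutant 3 the highest. Chad, a cartilage and tendon protein, read 312, 33.8 and 178 against 193, 218 and 372, and the proteoglycans Lum and Dcn differed by 0.32 and 0.25 with overlap, and by as little as 0.058 and 0.061 with 1 array left out.

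The median was 0.01 for 23 macrophage and leukocyte, -0.06 for 18 endothelial and 0.003 for 11 smooth muscle and pericyte genes. It was 0.18 for 4 blood, 0.05 for 8 Schwann cell, 0.07 for 9 satellite cell and 0.03 for 5 liver genes. The macrophage and leukocyte genes ranged from -0.59 to 0.31, with 10 lower, 13 higher and none free of overlap. The macrophage protease Ctss, not the member with the smallest p, differed by 0.28. The endothelial genes with the smallest p, Egfl7 and Aqp1, differed by -0.26 and -0.17 with overlap. The pericyte channel gene Abcc9, which muscle fibres also use, differed by 0.24 without overlap on the probe set used. Its other tested probe sets gave 0.03 and 0.08, both with overlap. Rgs5, with the next smallest p of that list, differed by -0.20. Its other probe sets gave -1.24, -0.39 and 0.16, and all of its probe sets overlapped.

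The response of muscle was then set against that of liver from mice of the same 2 kinds, by an interaction term over the 12 arrays. Of 11841 genes tested in both tissues, 168 (1.42%) differed at an adjusted p under 0.05, with the muscle response lower in 137 (1.16%) and higher in 31 (0.262%). This count ranged from 0 without the variance trend to 390 without liver mutant 2, and was 10 without liver mutants 1 and 3. Those livers had mean log2 3′ to 5′ ratios of 1.90 and 1.87, against 0.50 to 0.97 in the other livers and 0.33 to 0.56 in muscle, and the part of RNA quality in these differences was not tested.

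**Figure D4:**
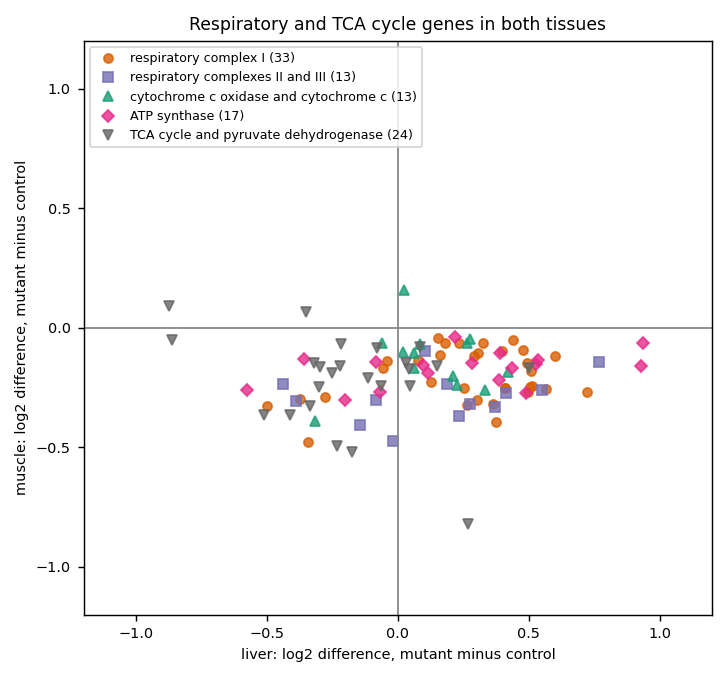
Log2 difference between mutant and control in liver (horizontal axis) and in muscle (vertical axis) for each respiratory or TCA cycle gene tested in both tissues (points, coloured by list, with the number of genes in brackets). Nearly all points lie below 0 in muscle, whereas complex I and ATP synthase genes lie mostly above 0 and TCA cycle genes mostly below 0 in liver.

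Respiratory genes differed in sign between the tissues. The median liver difference was 0.30 for complex I, 0.19 for complexes II and III, 0.08 for cytochrome c oxidase and 0.28 for ATP synthase, each opposite in sign to muscle. The interaction was called with muscle lower in 8 of 33, 2 of 13, 2 of 13 and 3 of 17 genes of these lists. Over all genes tested in both tissues the share was 1.16%. For the mitochondrial ribosome the liver median was 0.45 and 9 of 76 were called. Named members included Ndufb9 (interaction -0.61, adjusted p 0.0323), Cox7a2 (-0.61, 0.0165) and Atp5e, the epsilon subunit of ATP synthase (-1.09, 0.00406). A liver median above 0 was not particular to mitochondrial lists. It was 0.42 for the cytosolic ribosome and 0.29 for the proteasome, with 1 of 29 and 2 of 37 genes called with muscle lower.

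TCA cycle and fatty acid oxidation lists had medians below 0 in both tissues. Their liver medians were -0.22 and -0.18, and no member of either list was called with a lower muscle response. A negative liver median was not particular to these lists. It was -0.37 for lipid and cholesterol synthesis, -0.25 for the clock and -0.15 for glycolysis, while the lists given before had liver medians above 0. A higher muscle response was called in 2 of 24 TCA cycle genes, against 0.262% of all genes. Mdh1 differed by -0.51 and Acadvl by -0.38 in liver, close to their muscle values.

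Iigp1 had the largest interaction among the named genes, 2.68 ± 0.33 (SE), with an adjusted p of 0.00354. The interaction of BC023105, 1.46, had an adjusted p of 0.271. Ciao2a, an iron-sulphur assembly factor, had the smallest interaction p, with -0.19 in muscle and 1.11 in liver. Gng11 (-1.67), the complex III assembly factor Uqcc2 (-1.24) and Churc1 (-1.07) followed, and for these 4 the larger difference was the one in liver.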

How the data were processed

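The deposited values are probe set intensities on a linear scale from Affymetrix Murine 430 2.0 arrays, 45101 per array. How the authors summarised and scaled them is not stated in the labels or file header, and the design text names dChip for clustering. After removing 64 control probe sets, 34945 had 1 symbol, 932 several and 9160 none. Muscle and liver arrays were quantile normalised separately, log2(value + 16) was taken, and the probe set with the highest mean stood for each of 18193 genes. Genes above the 40th percentile in muscle were tested in limma 3.58.1 (R 4.3.3) with a variance trend and Benjamini-Hochberg adjustment at 0.05, which was tested on simulated data. Fold changes are on the log2(value + 16) scale and understate changes of dim genes. The number of arrays, 3 per group, limits precision. The 37 lists, of which 867 members were tested, and the arrays compared were chosen with earlier results of these data known. Named genes were Ppargc1b, those called, the 24 smallest p, up to 4 of smallest p per list and the 6 smallest interaction p; a few others are marked. After each group's mean was subtracted, same-numbered control and mutant muscle arrays correlated at 0.0358 to 0.197, and differently numbered ones at -0.163 to 0.0855. These values do not settle whether the numbers mark pairs. Numbers were not taken as pairs in the main fit. Alternatives were values as deposited, median centring, other offsets and filters, no variance trend, other handling of probe sets, all 12 arrays, a replicate block and leaving out arrays.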

Additional observations from a re-analysis of the deposited data

Results flagged for a closer look

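The difference between the muscle and the liver response passed an adjusted p of 0.05 in limma's interaction test for 18 of the genes named above. Values are the log2 difference in muscle minus that in liver. Those that involve a mitochondrial product were Atp5e (-1.09), Uqcc2 (-1.24), Cox7a2 (-0.61), Cox4i1 (-0.59), Ndufb9 (-0.61), Ndufab1 (-0.58), Mrpl41 (-1.11), Mrps36 (-1.46), Mrpl54 (-0.89), Micos13 (-0.95), Hspe1 (-0.71), Timm10 (-1.17) and Timm23 (-0.64). The others were Ciao2a (-1.30), Gng11 (-1.67), Churc1 (-1.07), Lst1 (-1.83) and Iigp1 (2.68). Iigp1 was the one with the higher response in muscle. The sign held under each alternative run for each of these genes, but the call often did not. Of 22 settings, Ndufab1 passed in 3, Timm23 in 4, Mrpl54 and Timm10 in 5, Ndufb9 in 6, Cox4i1 in 7, Hspe1 in 9, Micos13 in 14, Mrps36 in 15, Cox7a2 in 16 and Mrpl41 in 18, and Lst1 in 10 of 21. Atp5e, Gng11, Uqcc2 and Churc1 passed in 20 and Ciao2a and Iigp1 in 21. Without liver mutants 1 and 3, whose 3′ to 5′ ratios were high, Ciao2a, Iigp1 and Churc1 (adjusted p = 0.0425 each) and Uqcc2 (0.0143) still passed, and the other 14 did not. Atp5e then had an adjusted p of 0.0616, Cox7a2 0.102 and Ndufb9 0.215. Probe sets with several symbols (618 tested) or none (3458 tested) gave no call in muscle, with smallest adjusted p-values of 0.989 and 0.478.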

How the results depend on the processing

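The main limits are the unknown summary method behind the intensities and the 3 arrays a group. Over 125 of the named genes, Ppargc1b included, and 17 settings, 6 values fell short of the threshold and 12 changed sign, the latter in 7 genes. Leaving out 1 muscle array moved the value of 41 of the 125 by over 1.5 times, none of them called. The count of 2 called genes was 0 without the variance trend (590 at an unadjusted p under 0.05), 1 with probe sets averaged (BC023105) and 1 from all 12 arrays (Iigp1). It ranged from 1 to 2 when arrays were left out, with 1 (BC023105) without control 1 or control 2. With the replicate block it was 2, the same genes, with 752 at an unadjusted p under 0.05 against 560. The count of 168 genes that differed between tissues was 57 as deposited, 58 with median centring, 58 with no filter, 0 without the variance trend (1717 at an unadjusted p under 0.05), 85 with probe sets averaged and 26 with the replicate block. It ranged from 13 to 67 when 1 muscle array was left out, lowest without muscle mutant 2. Leaving out liver arrays was chosen after seeing the data. It gave 80 and 71 without controls 1 and 3, 12, 390 and 98 without mutants 1, 2 and 3, and 10 without mutants 1 and 3 together. The complex I median of -0.23 was -0.21 with median centring, -0.20 with no filter and -0.16 with probe sets averaged, and -0.25 to -0.17 when arrays were left out. The cytochrome c oxidase median of -0.10 was -0.18 over every probe set and -0.157 to -0.081 when arrays were left out. With probe sets averaged, signs changed for Myoz3 (0.37), Churc1 (0.085), Ndufa3 (0.11) and Tcof1 (0.19). When arrays were left out, values ranged from -0.14 to 0.17 for Ppargc1b, from -0.70 to 1.30 for Myh2, from -0.20 to 0.10 for Ndufa3 and from -0.056 to 0.0045 for Uqcc2. The causes were not tested.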
